A study of Homo sapiens with 4 samples.

Results

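The libraries of MDA-MB-231 cells that received CTGF siRNA and kahweol together (siCTGF+KW) were compared here with those that received neither (siCNT), and each gene was set beside the sum of the 2 single effects. A gene entered when its 4 counts averaged 10 or more, which left 16599 of 35993 (46.1%). MDA-MB-231, the only line used, is an established line of triple-negative breast cancer cells with mesenchymal features. The siCNT and siCNT+KW cells carried a control siRNA and the siCTGF and siCTGF+KW cells an siRNA against CTGF, so that every library came from transfected cells. Kahweol, a diterpene of coffee, was given to the +KW cells at 50 µM for 48 h. Each condition had 1 library, so no difference below has a replicate check and no test was made. The intervals given are 95% counting intervals, which cover the counting of reads and not the variation between cultures.

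CTGF, under its current symbol CCN2, is a secreted protein of the matrix that binds integrins and growth factors. Its gene is a textbook target of the coactivators YAP and TAZ, which act through TEAD factors, and of TGF-beta. Kahweol is an electrophilic compound that is known to activate NRF2, the factor that drives antioxidant genes. When 2 treatments act on a gene independently, their folds are often taken to multiply, which means that their log2 fold changes add. In what follows the sum is the log2 fold change of siCTGF against siCNT plus that of siCNT+KW against siCNT. The deviation is the combined log2 fold change minus this sum. It is also the siRNA effect in kahweol-treated cells minus the siRNA effect in untreated cells. The siCNT library enters the combined change once and the sum in both its terms. A siCNT value that was high or low by chance therefore moved the combined change and the sum together, and moved the deviation as well.

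CCN2 (chr6:132269316-132272512, minus strand, GRCh37) was the target of the siRNA and was lower than the sum in the combination. It had 159 CPM (counts relative to the library's total, scaled with TMM) in siCNT, 63.6 CPM in siCTGF, 186 CPM in siCNT+KW and 31.8 CPM in siCTGF+KW. The lowest level was that of the combination, and kahweol alone gave the highest. The combined log2 fold change was -2.32 (-2.44 to -2.21) and the sum was -1.09, so the deviation was -1.23 (-1.37 to -1.09). CCN1, a close relative of CCN2 and likewise a target of YAP and TAZ, had 70.8 CPM in siCNT, 119 CPM in siCTGF, 71.2 CPM in siCNT+KW and 58.4 CPM in siCTGF+KW. It was high in siCTGF only, and its deviation of -1.03 (-1.17 to -0.90) took a sum of 0.76 to a combined change of -0.28. ANKRD1, a nuclear protein that is also a target of YAP and TAZ, had 453 CPM in siCNT, 303 CPM in siCTGF, 181 CPM in siCNT+KW and 66.9 CPM in siCTGF+KW. It was lower with each single treatment and lowest with both, with a deviation of -0.86 (-0.95 to -0.76). CCN3, another family member, was additive, with a combined change of 0.90 against a sum of 0.70.

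The stretches of the CCN2 and ANKRD1 promoters that hold the TEAD element are shown because both genes were lower than their sums. The sequences are those of RefSeq (GRCh38.p14), each read 5′ to 3′ on the strand of the gene, with every match to GGAATG in capitals. The CCN2 stretch is chr6:131951452-131951551, minus strand, and the ANKRD1 stretch is chr10:90921200-90921317, minus strand.
CCN2: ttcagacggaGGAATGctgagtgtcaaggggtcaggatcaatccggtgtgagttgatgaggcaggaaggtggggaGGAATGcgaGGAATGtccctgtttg
ANKRD1: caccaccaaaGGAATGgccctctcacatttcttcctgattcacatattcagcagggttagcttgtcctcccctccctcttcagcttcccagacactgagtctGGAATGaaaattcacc
The CCN2 stretch held 3 matches and the ANKRD1 stretch held 2. Among 27305 promoters (250 bases before to 50 after the start, both strands) GGAATG was found in 14.0%, and among the 17 promoters matched to the list of YAP and TAZ targets it was found in 7 (41.2%). Of the genes of these 7 promoters, only CCN2 and ANKRD1 lay at least 1.5-fold below their sums, and CCN2 is itself the target of the siRNA. CCN1, which also lay below its sum, was not among the 7. The motif was chosen after the values of CCN2 were seen, and a match is a description of the sequence only.

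In the combination, 4858 genes (29.3%) were over a fold of 1.3 and 4272 (25.7%) were under a fold of 0.7 against siCNT. These are the fold thresholds of the study, here without its p-value. For kahweol alone 4665 genes (28.1%) were over and 4365 (26.3%) were under. For siCTGF alone the counts were 1598 (9.63%) and 1493 (8.99%). The sum passed the same thresholds upwards in 4951 genes (29.8%) and downwards in 4939 (29.8%). With total counts in place of TMM the combined change of all genes shifted by -0.17 on the log2 scale, and genes over the threshold made up 40.0% of those past either threshold in place of 53.2%. With the deposited TPM that share was 28.5%. The deviation shifted by -0.02 with total counts.

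Of the 9130 genes past a threshold in the combination, 6751 (73.9%) were additive, which means that the combined change lay within 1.5-fold of the sum. Another 643 (7.04%) were more than additive, 1146 (12.6%) were less than additive, and 590 (6.46%) lay on the other side of siCNT from their sum. Most additive genes were between the thresholds with siCTGF alone, namely 2702 over with kahweol alone, 2108 under with it and 1015 between. For these the sum differed from the kahweol change by less than a threshold fold, so additive says little about the siRNA. In a further 922 genes (5.55% of the 16599) the sum was past a threshold, the combined change was not, and at least 1.5-fold lay between them. This is called here a sum lost in the combination. Over all genes 2091 (12.6%) lay at least 1.5-fold above their sum and 1308 (7.88%) at least 1.5-fold below it. With total counts every class stayed within 1.5 times its size, but on the log2(TPM + 1) scale 163 genes were more than additive, 392 less than additive and 154 on the other side, and 455 had a lost sum.

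**Figure D1:**
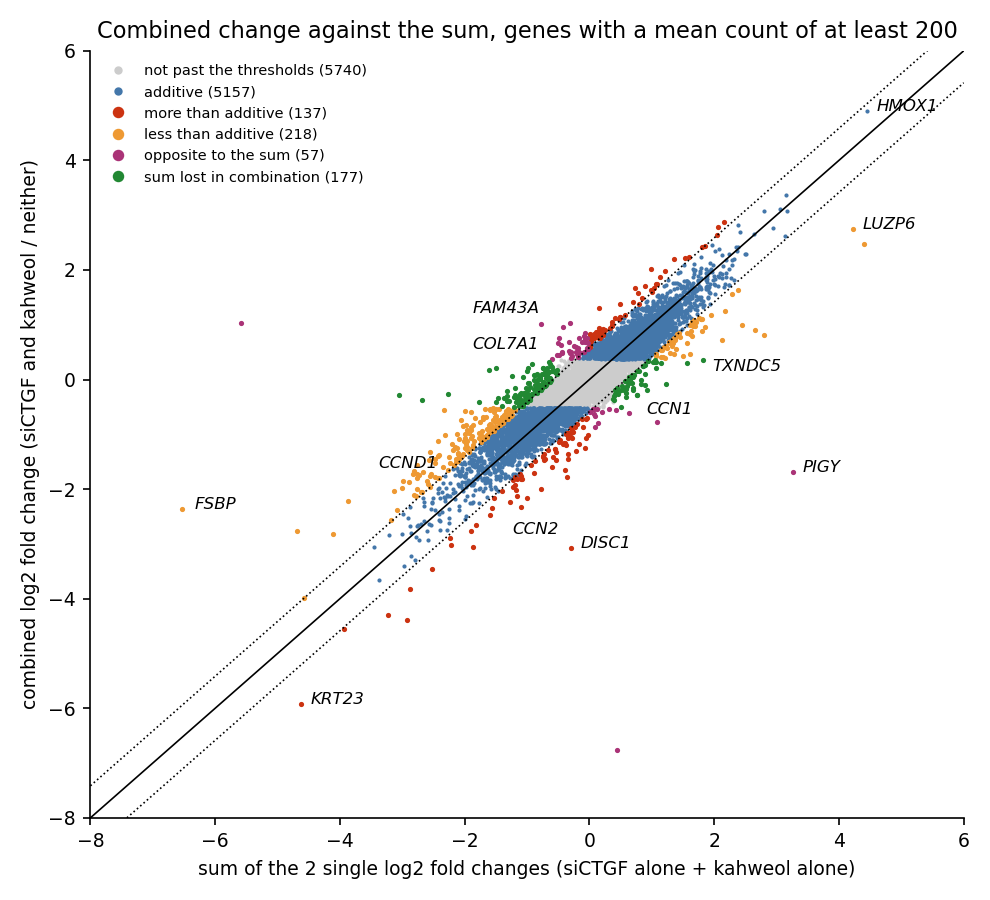
Combined log2 fold change (siCTGF+KW against siCNT, vertical axis) against the sum of the 2 single log2 fold changes (horizontal axis) for the 11486 genes whose mean count reached 200, 3 of which lie outside the axes. Points are genes coloured by class, with the number of genes in brackets; the solid line is equality and the dotted lines are 1.5-fold away. Most coloured points follow the solid line (5157 additive genes), and CCN2, CCN1 and PIGY lie below it.

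The distance from the sum depended on how many reads a gene had. Of the genes with a mean count of 10 to 50, 63.8% lay at least 1.5-fold from their sum, and the median counting error of a deviation was 1.00 on the log2 scale. This share was 41.0% from 50 to 200 counts, 13.3% from 200 to 1000, 2.29% from 1000 to 5000 and 1.31% from 5000 counts on. In the last group the SD of the deviation over genes was 0.19 and its median counting error was 0.05. When the deviation's interval also had to leave out 0, the classes held 205 genes more than additive, 443 less than additive, 268 on the other side and 411 with a lost sum. The leading genes of each class were therefore named only from a mean count of 200 on.

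**Figure D2:**
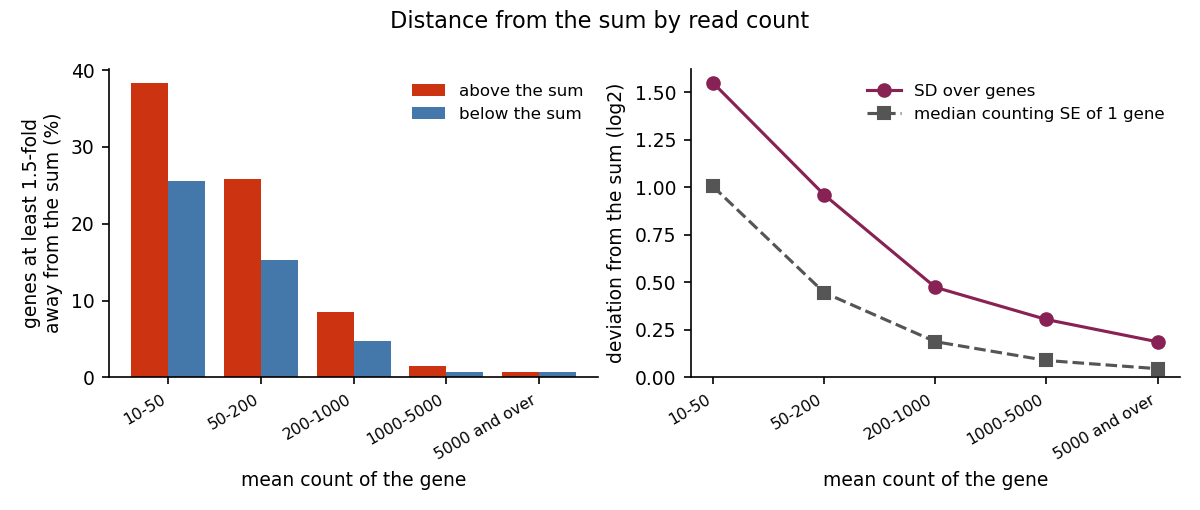
Left, share of genes at least 1.5-fold above (red) or below (blue) the sum, in percent, by mean count of the gene; right, SD of the deviation over the genes (solid line, log2) and the median counting error of a single gene (dashed line, log2). Both the share and the SD are largest below 50 counts, where 63.8% of genes were away from the sum, and smallest from 5000 counts on, where 1.31% were.

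Genes at overlapping loci stood apart. Of 785 genes with at least 200 counts that overlap another kept gene on the same strand, 12.7% lay away from their sum, against 5.01% of 10701 genes without such an overlap. Without a limit on counts the shares were 34.1% and 19.1%, and of 87 read-through genes, with a median of 102 counts, 66.7% did. At these loci the reads can be split between the annotated genes in different ways in each library. PIGY, a subunit of the enzyme that starts GPI anchors, had 214 counts in siCNT, 253 in siCTGF, 1057 in siCNT+KW and 46 in siCTGF+KW, a deviation of -4.96. With the overlapping PYURF added, the deviation of the locus was -0.35. DISC1 (deviation -2.77), HTD2 (-1.93), LUZP6 (-1.49), IFT80 (1.77), FSBP (4.17), FMC1 (1.25) and TXNDC5 (-1.46) likewise had locus values of 0.06, -0.03, -0.21, 0.16, -0.46, 0.12 and -0.14. LOC114841035, TNFSF12, TNFSF13, BHLHB9, SCLY, CHTF8 and PCDHGC3 were between -0.52 and 0.46 at the level of their loci. TNFRSF6B, a decoy receptor, turned from -1.46 to 1.67 with its read-through gene. PLEKHG5 kept its deviation, at 1.42 alone and 1.45 with the overlapping TNFRSF25. ZNF177, first by its combined change, had 0 counts in siCNT, 82 in siCTGF, 235 in siCNT+KW and 84 in siCTGF+KW, and its locus had a deviation of -0.02. The values of these genes are uncertain.

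Some genes that were past the same threshold with each single treatment were additive. ZNF675, a zinc finger gene, had 4.72 CPM in siCNT, 8.59 CPM in siCTGF, 9.77 CPM in siCNT+KW and 13.2 CPM in siCTGF+KW. The single treatments gave similar levels and the combination the highest. Its combined change was 1.48 (1.19 to 1.78) against a sum of 1.90. Among other zinc finger genes ZNF761 had a combined change of 2.08 against a sum of 2.15, and ZNF721 one of 1.72 against 2.24. Both ZNF761 and ZNF721 overlap other genes, and their loci had deviations of 0.12 and -0.55. In the other direction, KRT15, a basal keratin, had 22.0 CPM in siCNT, 8.02 CPM in siCTGF, 9.03 CPM in siCNT+KW and 2.86 CPM in siCTGF+KW. Its combined change of -2.92 (-3.32 to -2.56) lay beside a sum of -2.73. KRT80, another keratin, had 55.6, 26.9, 24.0 and 9.59 CPM in the 4 libraries in this order and a combined change of -2.53. ITGB2, the beta subunit of leukocyte integrins, had a combined change of -2.25 and a sum of -1.91, and SAA2, an acute-phase protein whose locus overlaps a read-through gene, one of -1.99 and a deviation of 0.31. CCND1, the cyclin of the G1 phase, was at 682 CPM in siCNT, 369 CPM in siCTGF, 390 CPM in siCNT+KW and 208 CPM in siCTGF+KW. Its combined change of -1.71 had a sum of -1.69 and a deviation of -0.02 (-0.08 to 0.04).

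Many other genes of this kind lay short of the sum. Of the genes past a threshold with kahweol only, 2702 of 3522 over and 2108 of 3308 under were additive. Of 815 genes over the threshold in both single comparisons, 361 were additive, 329 were less than additive and 85 had a lost sum. Of 739 genes under it in both, 178 were additive, 372 were less than additive and 125 had a lost sum. With at least 200 counts the figures were 181 additive and 40 less than additive of 234 genes over, and 62 additive and 46 less than additive of 121 genes under. These genes were picked on 2 comparisons that share the siCNT library, so the direction of their deviation is partly set by the choice.

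**Figure D3:**
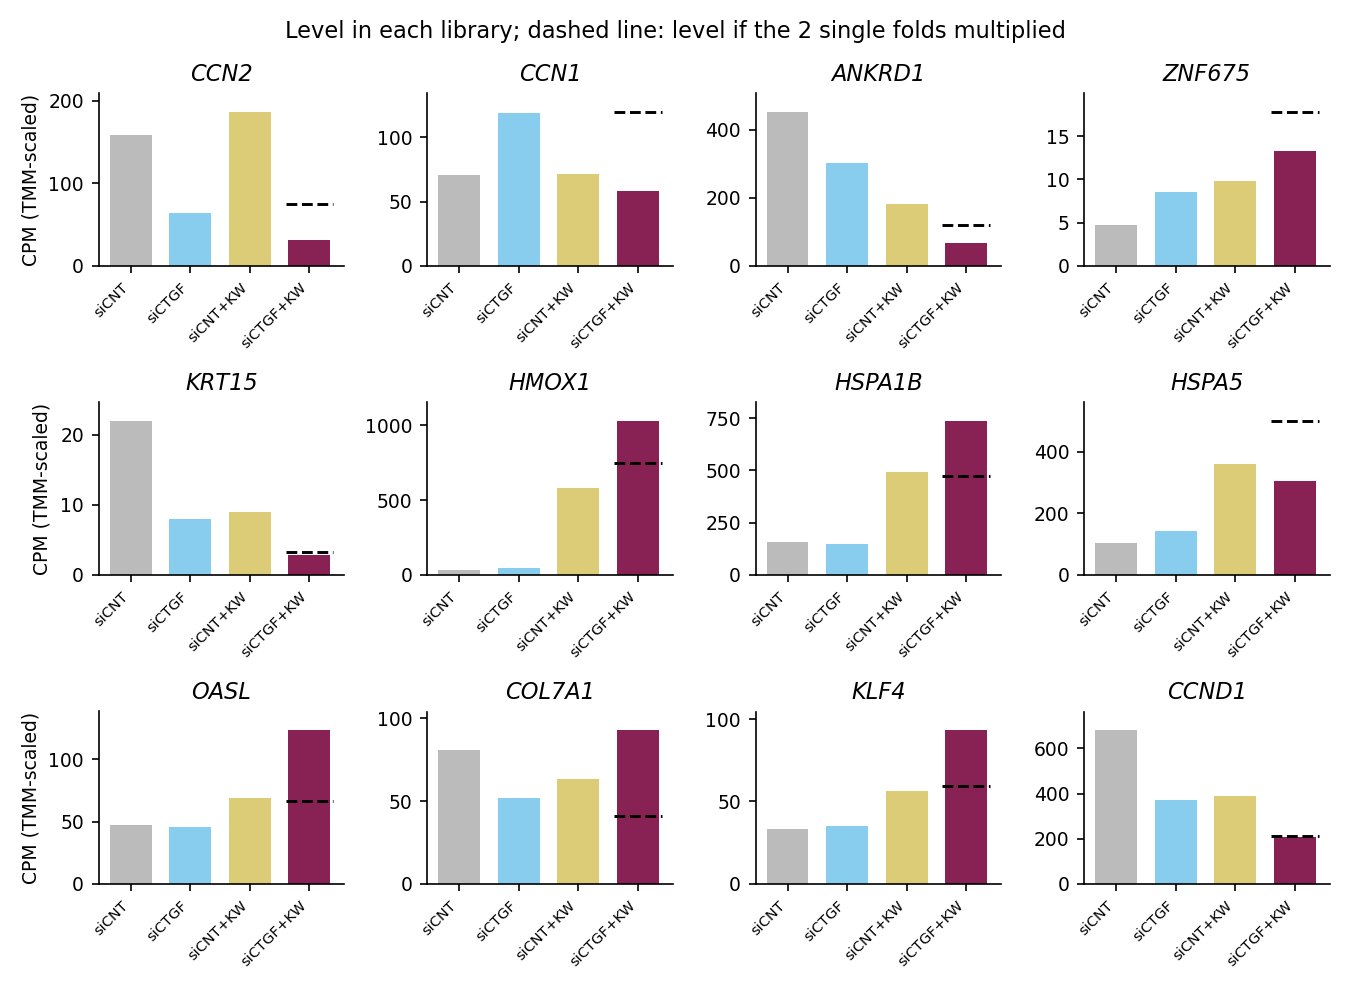
Level of 12 genes in each library (CPM scaled with TMM, vertical axis from 0); bars are single libraries (siCNT, siCTGF, siCNT+KW, siCTGF+KW) and have no error bar because there is 1 library each. The dashed line is the level of the combination if the 2 single folds multiplied; CCN2, CCN1 and ANKRD1 end below it, HSPA1B, OASL, KLF4 and COL7A1 above it, and CCND1 on it.

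Among the named genes with the highest combined changes was HMOX1, heme oxygenase and a target of NRF2. It had 34.3 CPM in siCNT, 44.3 CPM in siCTGF, 581 CPM in siCNT+KW and 1029 CPM in siCTGF+KW. Both kahweol libraries were far above both untreated ones. The combined change was 4.90 (4.82 to 5.00), and the sum was 4.45. SLC3A2, the heavy chain of amino acid transporters, had a combined change of 3.11 and a sum of 3.06. FOS and FOSB, AP-1 subunits, had combined changes of 3.37 and 3.07, and PPP1R15A, which directs dephosphorylation of eIF2 alpha, had 2.81. RSAD2, an antiviral enzyme with a mean of 161 counts, had 3.53. Of the genes near the top, PELI2, PYGM and SNAI1 were more than additive. The top genes were picked by the combined change, which is a term of the deviation, so the direction of their deviations is partly set by the choice. SNAI1, a repressor of E-cadherin, had 2.82 CPM in siCNT, 1.68 CPM in siCTGF, 19.8 CPM in siCNT+KW and 19.6 CPM in siCTGF+KW. Its 2 kahweol libraries were nearly level, and its deviation was 0.72 (0.17 to 1.26).

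The lowest combined change among the named genes was that of KRT23, a keratin. It was at 17.3 CPM in siCNT, 14.0 CPM in siCTGF, 0.834 CPM in siCNT+KW and 0.248 CPM in siCTGF+KW, the last from 11 counts. Its combined change was -5.92 (-7.46 to -4.87). CXCL1, a chemokine that draws neutrophils, had 41.2 CPM in siCNT, 39.9 CPM in siCTGF, 5.76 CPM in siCNT+KW and 2.86 CPM in siCTGF+KW. It was low with kahweol and lower still in the combination, and its deviation was -0.96 (-1.41 to -0.51). VXN and SCNN1A, a subunit of the epithelial sodium channel, were also more than additive (deviations of -1.07 and -0.93), as was the TNF family ligand TNFSF15 (-0.62, -1.67 to 0.43). For TNFSF15 the deviation was 0.15 on the scale of log2(TPM + 1). GPR15, ZBED2 and WNT16, a Wnt ligand, were additive, with combined changes of -4.62, -4.03 and -3.66. CYP24A1, which breaks down vitamin D, was less than additive at -3.63 with an interval of the deviation from -0.33 to 2.16. Genes at this end were likewise picked by the combined change, so the direction of their deviations is partly set by the choice.

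Among the other genes more than additive and higher, OASL, an interferon-induced protein, had 47.5 CPM in siCNT, 45.9 CPM in siCTGF, 68.7 CPM in siCNT+KW and 124 CPM in siCTGF+KW. The siRNA went with a higher level only in the kahweol-treated cells, and the deviation was 0.90 (0.75 to 1.04). HSPB8, a small heat shock protein, had 5.39 CPM in siCNT, 2.59 CPM in siCTGF, 22.2 CPM in siCNT+KW and 22.0 CPM in siCTGF+KW. It was low in siCTGF alone, and its deviation was 1.04 (0.60 to 1.48). OTUD1, a deubiquitinase, and GRHL1, a Grainyhead factor of epithelia, had deviations of 0.94 and 1.16. HSPA1B, an inducible HSP70 with a near-identical copy in HSPA1A, had 157 CPM in siCNT, 150 CPM in siCTGF, 495 CPM in siCNT+KW and 737 CPM in siCTGF+KW. Its deviation was 0.64 (0.57 to 0.71). ST6GALNAC5, a sialyltransferase, was more than additive and lower, with 6.29, 7.52, 4.1 and 1.80 CPM in siCNT, siCTGF, siCNT+KW and siCTGF+KW and a deviation of -1.42 (-2.03 to -0.82).

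Fewer genes without an overlapping neighbour led the class of less than additive. HSPA5, the main chaperone of the endoplasmic reticulum, had 102 CPM in siCNT, 143 CPM in siCTGF, 359 CPM in siCNT+KW and 304 CPM in siCTGF+KW. The siRNA went with a higher level in untreated cells and a lower one in treated cells. Its combined change was 1.57 against a sum of 2.28, a deviation of -0.72 (-0.80 to -0.63). TSHZ1, a zinc finger factor, had a combined change of 0.89 against a sum of 1.81. ARSA, a lysosomal sulfatase, had 10.5 CPM in siCNT, 8.87 CPM in siCTGF, 0.81 CPM in siCNT+KW and 2.23 CPM in siCTGF+KW. Kahweol alone gave the lowest level, and the deviation was 1.66 (0.84 to 2.47). EGR1, an early response factor, had a combined change of 1.63 and a sum of 2.37.

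Some genes crossed to the other side of siCNT or came back to it. FAM43A had 6.0 CPM in siCNT, 2.59 CPM in siCTGF, 8.08 CPM in siCNT+KW and 12.1 CPM in siCTGF+KW. It was lowest with the siRNA alone and highest with both, a combined change of 1.01 against a sum of -0.77. VAMP1, a vesicle SNARE, had a combined change of 1.03 against -0.31, and TBC1D3L, of a multicopy family, one of 0.63 against -0.45. CHAC1, an enzyme that degrades glutathione and a target of ATF4, had 5.97 CPM in siCNT, 5.78 CPM in siCTGF, 6.55 CPM in siCNT+KW and 3.27 CPM in siCTGF+KW. Only the combination was low, and its change was -0.86 (-1.29 to -0.48). COL7A1, the collagen of anchoring fibrils, had 80.8 CPM in siCNT, 52.0 CPM in siCTGF, 63.4 CPM in siCNT+KW and 93.0 CPM in siCTGF+KW. Each single treatment was below siCNT and the combination was above it, with a deviation of 1.19 (1.05 to 1.32). FAM98B had a sum of 0.76 and a combined change of -0.27.

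Gene lists are described next by their counts and medians, without a test. Over all 16599 genes the median was -0.01 for the combined change, -0.04 for the sum and 0.00 for the deviation. The median deviation depended on counts, from 0.21 at 10 to 50 counts to -0.05 from 5000 counts on. Numbers of deviations above or below 0 in a list are to be read beside this. Of all genes 29.3% were over and 25.7% under a threshold in the combination, and the counts of each list stand beside these shares. Where a list's combined median is printed, its sign was the same with total counts, DESeq2 size factors and the median subtracted unless an exception is given.

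Among the lists of protective responses, NRF2 targets, heat shock genes, ER chaperones and autophagy genes were mostly over the threshold. Of 31 NRF2 targets, 24 were over and 24 of the list were additive, with medians of 1.02 for the combination, 1.13 for the sum and 0.03 for the siRNA alone. FTH1, the ferritin heavy chain, had 143 CPM in siCNT, 194 CPM in siCTGF, 813 CPM in siCNT+KW and 971 CPM in siCTGF+KW, and its combined change was 2.76. ME1, the malic enzyme, and NQO1, a quinone reductase, had 1.02 and 1.07, and ABCC2 and ABCC3, export pumps of the list, had -0.64 and -0.65. Of 19 heat shock genes, 14 were over, with a median of 1.07 and a median sum of 1.09. DNAJB4, an HSP40, had 2.45. Of 27 ER chaperones and genes of the unfolded protein response 17 were over, led by DNAJB9 at 2.42, and the medians were 0.54 and 0.57. Of 28 genes of autophagy and lysosomes 18 were over, led by SQSTM1, an autophagy receptor, at 2.27 and GABARAPL1 at 2.11. Of 30 ATF4 targets 14 were over and 3 under, with a median of 0.30 that was -0.01 on the log2(TPM + 1) scale. Of 20 tRNA synthetases, enzymes that charge tRNAs, 3 were over and 2 under, with a median of 0.08 that was -0.09 with total counts.

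The 46 ribosomal protein genes had a median of 0.44 and 31 of them were over, and of 31 proteasome genes 16 were over with a median of 0.41. With total counts the numbers over the threshold were 9 and 8. The sums were 0.55 and 0.48, and 36 of the 46 and 26 of the 31 had a deviation below 0, all within 1.5-fold. PSMC6, an ATPase of the proteasome, had 1.27.

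For these 3 lists the promoter matches of the named genes are shown in capitals, 1 match per gene, on the strand of the gene. The antioxidant response element (TGACNNNGC) was found in 13.6% of all promoters and in 6 of 22 matched NRF2 targets (27.3%). The C/EBP-ATF response element (TGATGNAA) was in 3.67% of all promoters and in 4 of 24 matched ATF4 targets (16.7%). The interferon-stimulated response element, searched as GAAA, any 2 bases and GAAA, was in 3.65% of all and in 20 of 30 matched interferon-stimulated genes (66.7%). Both strands were searched each time. The windows lie at chr6:83431170-83431198 (minus) for ME1, chr15:40953252-40953279 (plus) for CHAC1, chr11:62881726-62881748 (plus) for SLC3A2, chr12:112938321-112938350 (plus) for OAS3 and chr13:42992272-42992301 (minus) for EPSTI1.
ME1: tctcctgccaTGACTCAGCgcttctcgca
CHAC1: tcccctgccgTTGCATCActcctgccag
SLC3A2: gcaggactccTTACATCAgctcc
OAS3: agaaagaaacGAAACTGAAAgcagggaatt
EPSTI1: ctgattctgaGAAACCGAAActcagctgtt
Of the 6 NRF2 targets with the antioxidant response element 4 were over the threshold and 0 under. Genes with the C/EBP-ATF or the interferon-stimulated response element did not share a direction. ME1 was higher and additive, and CHAC1 was lower than siCNT in the combination while SLC3A2, with the same element, was at 3.11. Of the 20 interferon-stimulated genes with their element 10 were over the threshold and 3 under, and OAS3 and EPSTI1, both among the 3, had combined changes of -1.41 and -1.06.

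Of 39 interferon-stimulated genes, 17 were over and 7 were under the thresholds, with a median of 0.21 that was -0.07 on the log2(TPM + 1) scale. The deviation was above 0 in 29 of them, but only 2 lay at least 1.5-fold above the sum. IFIT2, which binds viral RNA, had 121 CPM in siCNT, 123 CPM in siCTGF, 322 CPM in siCNT+KW and 469 CPM in siCTGF+KW. The siRNA effect was 0.03 (-0.04 to 0.10) in untreated cells, and the deviation was 0.51 (0.43 to 0.59). The 21 AP-1 and immediate early genes had a median of 0.93 against a sum of 0.62. Of these genes 15 were over the threshold and 15 had a deviation above 0. JUNB, an AP-1 subunit, had 46.3 CPM in siCNT, 38.6 CPM in siCTGF, 62.1 CPM in siCNT+KW and 88.4 CPM in siCTGF+KW and a deviation of 0.77 (0.62 to 0.93). KLF4, a zinc finger factor, had 93.4 CPM in the combination against 33.1 CPM in siCNT and a deviation of 0.66. JUNB and KLF4 were chosen after their values were seen.

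Genes of the S phase were low with kahweol and lower in the combination. In RNA from whole cultures fewer cells in S phase and less of these mRNAs per cell cannot be told apart. Of 37 DNA replication genes 33 were under the threshold, with a combined median of -1.12, a sum of -0.90 and a median deviation of -0.19. The deviation was below 0 in 32 of the 37. MCM6, a subunit of the replicative helicase, had 91.4 CPM in siCNT, 97.7 CPM in siCTGF, 40.4 CPM in siCNT+KW and 25.8 CPM in siCTGF+KW. The untreated libraries were close together, and the deviation was -0.74 (-0.91 to -0.57). TYMS and GINS2 also lay at least 1.5-fold below the sum. With MCM6 they made 3 of the 37, a share near the 7.88% of all genes that lay this far below. All 23 histone genes of the replication type were under the threshold, with a combined median of -1.29 and a sum of -0.89, and 22 had a deviation below 0 (median -0.42). H2AC11, an H2A gene, had 242 CPM in siCNT, 275 CPM in siCTGF, 94.0 CPM in siCNT+KW and 63.5 CPM in siCTGF+KW. The siRNA went with a higher level in untreated cells and a lower one in treated cells. H2AC4, H3C3 and H4C4 were also more than additive, and the other 19 were additive. Among those, H2AC7 had a combined change of -2.41 and a deviation of -0.05 (-0.68 to 0.57), and H2BC7, the only histone gene of the list above its sum, had -2.70 and 0.33 (-1.17 to 1.83). TYMS, GINS2 and the 4 histone genes were named after their values were seen. Of 40 mitosis genes 35 were between the thresholds (median -0.14), and the deviation was below 0 in 33 of the 40 but never by 1.5-fold. CDK1, the mitotic kinase, had -1.05. E2F1, a factor that drives S phase genes, had a combined change of -2.07 and lay at its sum.

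Lipid synthesis followed the sum. The median effect of the siRNA alone was -0.08 for cholesterol synthesis and 0.05 for fatty acid synthesis, so lying at the sum says little about the siRNA. Of 24 genes of cholesterol synthesis 16 were under and 0 over, with medians of -0.84 and -0.87. FDPS, the farnesyl diphosphate synthase, had -1.52. Of 13 genes of fatty acid synthesis 8 were under, among them FASN (-1.33) and SCD (-1.40).

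**Figure D4:**
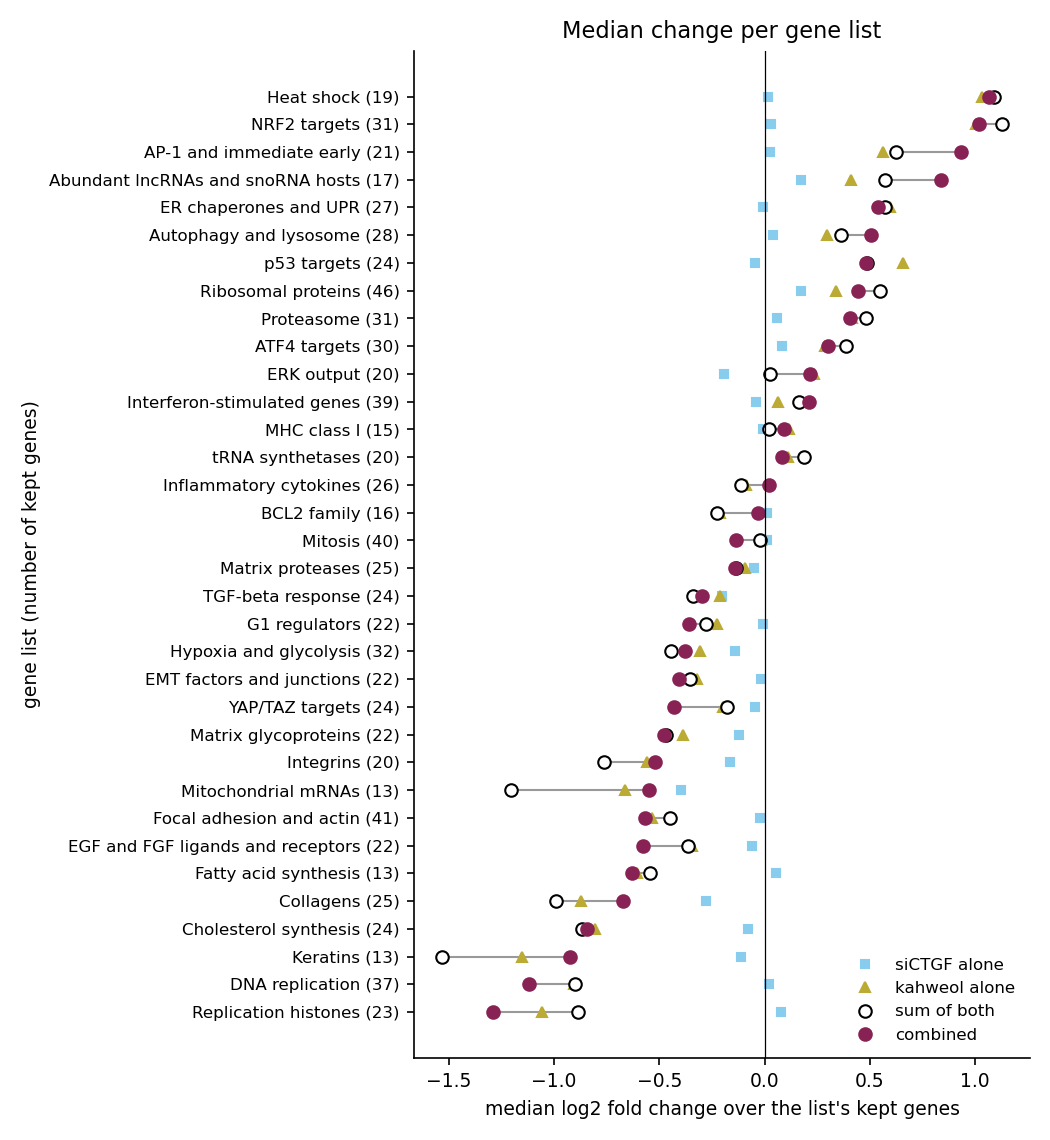
Median log2 fold change (horizontal axis) of the kept genes of each list with at least 13 of them (vertical axis, number of genes in brackets), for siCTGF alone, kahweol alone, their sum and the combination. The combination lies at the sum for NRF2 targets (1.02 and 1.13) and cholesterol synthesis (-0.84 and -0.87), below it for replication histones (-1.29 and -0.89) and nearer to 0 for mitochondrial mRNAs (-0.55 and -1.20) and collagens (-0.67 and -0.99).

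Collagens and the mRNAs of the mitochondrial genome came out nearer to siCNT than the sum. Of 25 collagen genes 15 were under and 1 over, with a combined median of -0.67, a sum of -0.99 and a median deviation of 0.46. With the 2 collagen genes that had 0 counts in a library set to 3 counts, the medians were -0.68, -0.99 and 0.46. In 19 of the 25 the deviation was above 0, 5 were less than additive and 4 had a lost sum. Over all genes 6.90% were less than additive and 5.55% had a lost sum. Of the collagens 9 lay at least 1.5-fold above the sum and 1 below it. Above it lay 12.6% of all genes, but 38.3% of those with 10 to 50 counts. The median deviation of the collagens was 0.31 on the log2(TPM + 1) scale. The collagens COL13A1 and COL9A2 had combined changes of -1.99 and -1.50 and were additive. COL4A4, a collagen of basement membranes with a mean of 155 counts, had 4.02 CPM in siCNT, 3.69 CPM in siCTGF, 2.18 CPM in siCNT+KW and 1.69 CPM in siCTGF+KW, a combined change of -1.23 (-1.80 to -0.70) and a deviation of -0.24 (-0.96 to 0.48).

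The 13 protein-coding mRNAs of the mitochondrial genome had a combined median of -0.55 against a sum of -1.20. The median deviation was 0.74, 12 of the 13 were above 0 and 9 lay at least 1.5-fold above the sum. COX1, a subunit of cytochrome c oxidase, had 707 CPM in siCNT, 559 CPM in siCTGF, 388 CPM in siCNT+KW and 483 CPM in siCTGF+KW. Kahweol alone was lowest, and the combination lay between the single treatments. The deviation was 0.65 (0.60 to 0.70). COX3 was alike, with 681, 517, 355 and 451 CPM in the same order. ND4 had a deviation of 1.03 and, summed with the overlapping ND4L, one of 1.05. ND1 and CYTB had deviations of -0.01 and 0.12. COX1, COX3, ND1 and CYTB were chosen after their values were seen. The rRNA of mitochondria, which was not removed from the tables, took 3.94% of all counts in siCNT, 3.11% in siCTGF, 4.33% in siCNT+KW and 6.01% in siCTGF+KW. It was highest in the combination, as were the 10 most abundant genes (12.9% against 8.25% to 10.8%) and small noncoding RNAs (3.15% against 2.02% to 2.95%). The 175 snoRNAs had a median deviation of 0.38. The part of these shares in the result was not tested.

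**Figure D5:**
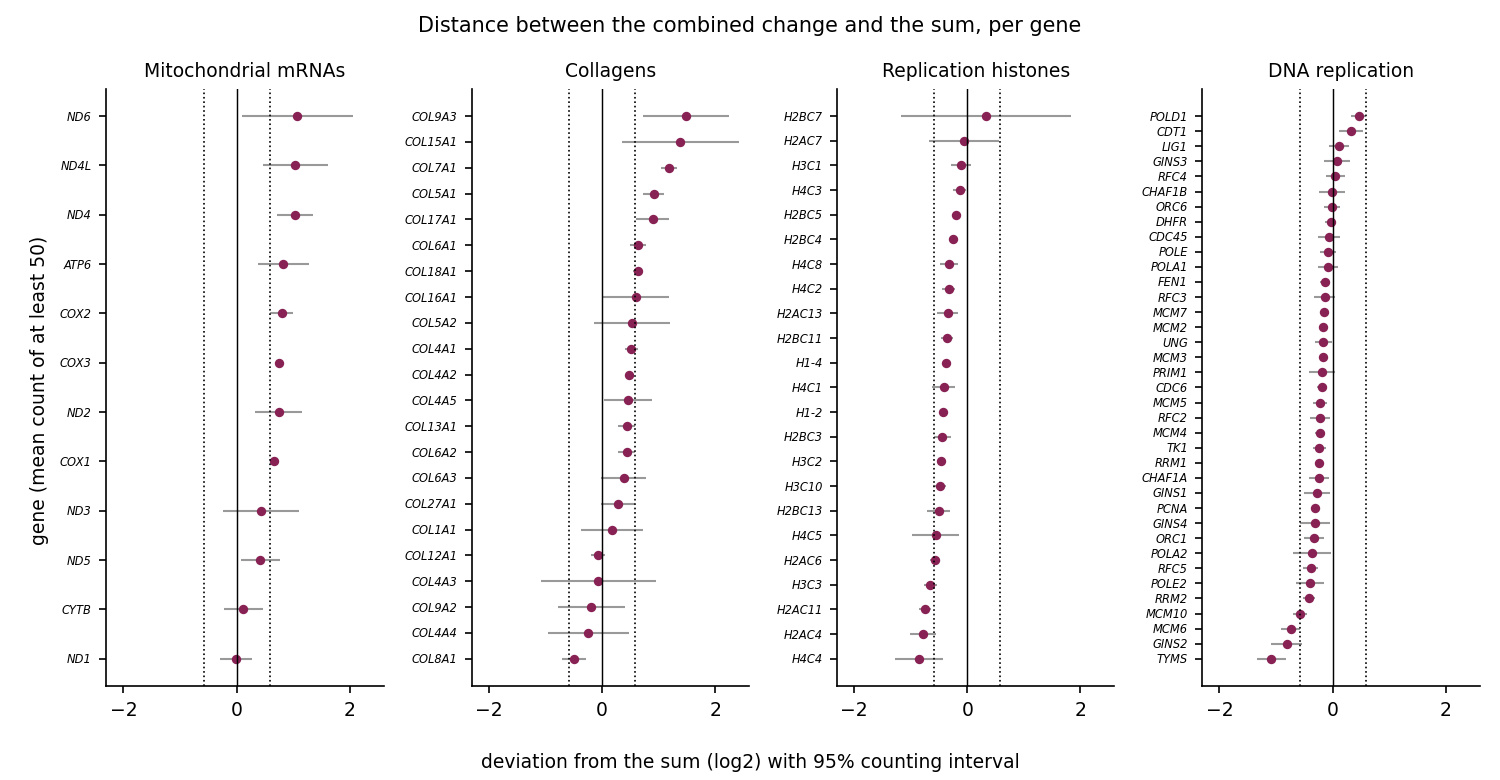
Deviation from the sum (log2, horizontal axis) of each gene with a mean count of at least 50 in 4 lists (vertical axis), with its 95% counting interval; the solid line is 0 and the dotted lines are 1.5-fold. Mitochondrial mRNAs (12 of 13 in the whole list above 0) and collagens (19 of 25) lie mostly to the right, and replication histones (22 of 23 below 0) and DNA replication genes (32 of 37) mostly to the left.

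The other lists of adhesion and matrix held genes in both directions. Of 41 genes of focal adhesion and actin 22 were under and 5 over, with medians of -0.57 and -0.45. VCL, vinculin, had 383 CPM in siCNT, 348 CPM in siCTGF, 252 CPM in siCNT+KW and 206 CPM in siCTGF+KW, a combined change of -0.90 and a deviation of -0.15. MYLK, the myosin light chain kinase, had -2.65. TPM4, a tropomyosin, had 305 CPM in siCNT, 793 CPM in siCTGF, 195 CPM in siCNT+KW and 503 CPM in siCTGF+KW. It was high wherever the CTGF siRNA was present and low with kahweol, and the deviation was -0.01 (-0.07 to 0.05). Of 20 integrin genes 10 were under and 3 over, with a combined median of -0.52 and a sum of -0.76. In 3 of them the deviation was at least 1.5-fold above 0 and in 3 at least 1.5-fold below it, and ITGB4 was less than additive at -1.64. Of 22 matrix glycoproteins 10 were under and 3 over. In this list SPARC was additive at -2.12, VCAN more than additive at -2.16, and LAMA1 more than additive at 0.87. Of 25 matrix proteases and inhibitors 9 were over and 7 under, not far from the 29.3% and 25.7% of all genes. MMP1, a collagenase, had 19.6 CPM in siCNT, 30.7 CPM in siCTGF, 47.6 CPM in siCNT+KW and 63.4 CPM in siCTGF+KW, a combined change of 1.69 and a sum of 1.92. PLAT, the tissue plasminogen activator, had -2.26. COL11A1, the remaining matrix gene that the study names, did not reach a mean of 10 counts.

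The 24 YAP and TAZ targets had a combined median of -0.43 against a sum of -0.18, with 11 under and 3 over. The deviation was below 0 in 21 of them. Over all genes 7.88% lay at least 1.5-fold below their sum, and of these 24 genes 3 did, namely CCN2, CCN1 and ANKRD1. Of these, CCN2 is itself the target of the siRNA, so its deviation also holds any difference in knockdown between the cultures. RBMS3 (-2.38) was additive, as were LATS2, a kinase of the Hippo pathway (0.94), and GADD45A (1.10). Of 24 genes of the TGF-beta response 10 were under and 6 over, with ID1 at -1.81, ID2 at 1.26 and TGFB2, a ligand, at -1.60, each additive. Of 24 genes of the p53 program 14 were over and 3 under, in cells whose p53 is mutant. Of 16 BCL2 family genes 5 were over and 5 under, and of 26 cytokines and related inflammatory genes 8 were over and 8 under, shares near the 29.3% and 25.7% of all genes. PMAIP1 and BCL2L11, which promote apoptosis, had 1.46 and 1.41 and were additive. BIRC3, an inhibitor of apoptosis, had -2.63, and DDB2, a repair protein, had -1.96.

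The lists of identity were checked in the same libraries. The 6 markers of the mesenchymal line summed to 4409 to 5095 CPM, most of it VIM, and the 7 luminal markers to 89.2 to 117 CPM, most of it ERBB2. ESR1, the estrogen receptor, had 0 to 6 counts. Markers of other cells were low, with 13.0 to 16.9 CPM over 6 fibroblast genes and 3.67 to 8.11 CPM over 4 endothelial genes. The 6 leukocyte markers summed to 46.1 CPM in siCNT and 62.4 CPM in siCTGF+KW, of which CD68 gave 43.8 and 60.5 CPM, while PTPRC had 4 and 6 counts and CD3E 0 in both. The libraries had 44781516 to 59129784 counts in all.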

How the data were processed

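The data were RNA-Seq counts of 4 MDA-MB-231 libraries, 1 per condition, so p-values were not computed. According to the submitters' processing notes, FastQC 0.11.7, Trimmomatic 0.38, HISAT2 2.1.0, Bowtie2 2.3.4.1 and StringTie 2.1.3b were used with GRCh37.p13. The read counts per gene were deposited by the authors as whole numbers without normalization. The deposited TPM values are those of StringTie. The authors' columns of FPKM and coverage were not used here.

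A gene was kept when its counts averaged 10 or more, and its log2 CPM came from TMM scaling in edgeR 4.0.16 (R 4.3.3) with a prior count of 2. Fitted folds of genes near 0 counts depend on this prior. Intervals (95%) are Clopper-Pearson for a fold and from the delta method on log counts for a deviation, with 2 reads taken as 1 fragment, since reads were paired. Thresholds were folds of 1.3 and 0.7 and a deviation of 1.5-fold. DESeq2 1.42.0 gave alternative size factors, and the prior count, the filter, the thresholds, log2(TPM + 1) and the set of genes were also varied. The other steps ran in Python 3.11.15 with pandas 2.3.3, numpy 2.4.6, scipy 1.17.1 and matplotlib 3.10.9. The computation of the deviation was tested on simulated data. Overlaps between genes used the GRCh37 positions of the deposited tables, and promoters came from RefSeq (GRCh38.p14). The libraries were stranded, and the strand setting of the counting is not given in the sources used here.

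The comparison and the 42 gene lists were chosen with earlier results of these data known. Genes were named by a rule: those of the study's text, the 10 protein-coding genes at either end of the combined change (mean count of at least 100), the 4 leading genes per class and direction (at least 200) and up to 2 per list and direction (at least 50), 170 in all. Other genes are marked where they are named. Not every gene that meets the rule is reported here.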

Additional observations from a re-analysis of the deposited data

Results flagged for a closer look

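Of the 170 genes named by the rule, 14 had an siCTGF effect past a fold threshold in opposite directions in untreated and in kahweol-treated cells. The difference between the 2 effects, which is the deviation, was not tested, because each effect rests on 2 single libraries. Over all 16599 genes 678 were of this kind, and 41 of them had a mean count of at least 200. Because the rule also takes the leading genes of classes that the deviation defines, the number among the named genes is partly set by that choice.

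COL7A1 (deviation 1.19), FAM43A (1.79), VAMP1 (1.34) and GRHL1 (1.16) were lower with the siRNA in untreated cells and higher with it in treated cells, with counting intervals of the deviation that left out 0. CYP24A1 (0.92) moved in the same way, but its interval ran from -0.33 to 2.16. FAM98B (-1.03) and TSHZ1 (-0.92) were higher with the siRNA in untreated cells and lower in treated cells, and GATA3 (-1.08), at a mean of 59 counts, had an interval of -2.24 to 0.08. The remaining genes overlap another gene on the same strand, namely HTD2 (-1.93), LOC114841035 (2.77), PCDHGC3 (-1.26), PIGY (-4.96), TXNDC5 (-1.46) and ZNF177 (-6.82), which had 0 counts in siCNT. Their values summed over the locus are given with the overlapping loci above.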

How the results depend on the processing

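No paired analysis was possible because each condition has 1 library and no test was made. The counts of genes over and under the thresholds and of each class stayed within 1.5 times under DESeq2 size factors, total counts, prior counts of 0.5 and 5 and the subtracted median, and the classes did so with additivity on the linear CPM scale. With a fold of at least 2, 1490 genes were over, 2116 under, 2237 additive, 657 less than additive and 174 on the other side of the sum. On the log2(TPM + 1) scale, 2057 genes were over, 163 more than additive, 392 less than additive and 154 on the other side, and 455 had a lost sum. The cause of these moves was not tested.

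The filter on counts moved the classes most. In the order more than additive, less than additive, other side and lost sum, the counts were 1113, 2536, 1599 and 2359 with a mean count of at least 1, and 217, 340, 119 and 291 with at least 100. With at least 1000, a setting added after the data were seen, they were 43, 44, 12 and 46 beside 3429 additive genes. Fewer genes enter at each step. Genes whose counting interval left out 0 numbered 205, 443, 268 and 411. Among protein-coding genes 759 were less than additive, 335 on the other side and 563 with a lost sum. A deviation of at least 1.3-fold gave 1186 genes more than additive and 1733 less than additive, and one of at least 2-fold gave 234, 666 and, for the lost sum, 456. Leaving out genes that overlap on the same strand, also added later, kept the classes within 1.5 times. Of 1020 deviations of named genes recomputed, 1007 stayed within their counting interval, 12 left it with log2(TPM + 1), and that of TNFSF15 turned from -0.62 to 0.15 on that scale. Of 1020 combined changes 205 left their interval, of which 129 did so with log2(TPM + 1) and 72 with total counts, and no called change turned its direction.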

Other observations

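Among the lists that the text above does not describe, the keratins stood out by their medians. Of 13 keratin genes 7 were under and 1 over, with a combined median of -0.92 against a sum of -1.53 and a median deviation of 0.12. The deviations ran from -1.42 to 2.78. The medians stayed the same when the 2 keratin genes with 0 counts in a library were set to 3 counts. Of 22 growth factors and receptor kinases, mainly of the EGF and FGF families, 11 were under and 1 over (median -0.58), led by FGF1, a growth factor, at -3.22 and PDGFB at -2.11. Of 32 genes of hypoxia and glycolysis 14 were under and 7 over, with PFKFB4, a regulator of glycolysis, at -1.36, the enolase ENO2 at -1.30, SLC2A3, a glucose transporter, at 1.79 and ADM, a vasodilator peptide, at 1.54. The deviation was above 0 in 28 of those 32. Of 15 genes of MHC class I 4 were over and 4 under, shares near the 29.3% and 25.7% of all genes, with HLA-E at 0.74 and PSMB9, a subunit of the immunoproteasome, at -0.90. Of 17 abundant lncRNAs and snoRNA host genes 13 were over, with a median of 0.84 against a sum of 0.57, led by ZFAS1 (1.47) and SNHG1 (1.41), whose loci hold snoRNA genes. Of 20 genes of ERK output 8 were over and 4 under, and of 22 regulators of the G1 phase 6 were over and 8 under. Both lists stand beside the same 29.3% and 25.7% of all genes. CCND2, a G1 cyclin, had 1.72, and CDKN1C, a CDK inhibitor, had 1.09.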
